A study of Mus musculus with 60 samples.

Results

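The strains described here are the Swiss-derived inbred mice FVB/NJ, SWR/J, SJL/J, NOD/LtJ and NOR/LtJ, and the tissue is the cortex of water-treated males, labelled 10 to 11 weeks old. The 5 arrays are the water arrays of these strains, out of 60 arrays in all. No measured value enters the rule that defines them, but the strains were chosen with earlier results of these data known. The reference was the 25 water arrays of the remaining strains: C57BL/6J, C57BR/cdJ, C57BLKS/J, C58/J, BALB/cJ, A/J, 129S1/SvImJ, LP/J, BTBRT T(+) tf/J, AKR/J, C3H/HeJ, CBA/J, DBA/2J, CE/J, BUB/BnJ, I/LnJ, LG/J, SM/J, MA/MyJ, NZW/LacJ, MRL/MpJ, PL/J, NZB/BlNJ, RIIIS/J and P/J. Water animals received no fluoxetine, an antidepressant that blocks serotonin reuptake (dose 0 mg/kg per day). A second set of 30 arrays, 5 Swiss-derived and 25 other, came from males of the same strains and was used as a check. These males were given fluoxetine at 18 mg/kg per day by mouth for 21 days. Each array carried RNA pooled from 3 mice, so the spread between mice of a strain was not measured, and strains served as the replicates.

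Swiss mice are an outbred stock from which many laboratory strains were bred in Europe, America and Japan. FVB/NJ is the usual host for transgene injection, SJL/J is prone to experimental autoimmune encephalomyelitis, and NOD/LtJ develops autoimmune diabetes. NOR/LtJ was derived from NOD stock crossed to C57BLKS/J and resists diabetes. NOD/LtJ and NOR/LtJ therefore share most of their genome, and the 5 strains are not 5 independent draws. Inbred strains fix alleles by descent, so a variant that alters the level of a transcript, or its match to the array's probes, can be shared by descendants of a stock.

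The values were GCRMA intensities of Affymetrix arrays, analysed on the log2 scale, where a difference of 1 is a doubling. Of 18193 measured genes, 11886 reached log2 4 in at least 6 of 60 arrays and were tested. Array medians lay between 39.1 and 43.1 on the linear intensity scale. The 3' minus 5' signal, a measure of RNA integrity, differed between the 5 and the 25 water arrays by -0.034 on the log2 scale for Actb (two-sided exact permutation p = 0.443) and for Gapdh by -0.033 (exact permutation p = 0.293). Cortical markers were present in all 5: Tbr1, a transcription factor of deep-layer neurons, read 11.83 to 12.09, and Slc17a7, the vesicular glutamate transporter of cortical excitatory neurons, read 12.25 to 13.01. Drd2, a marker of striatal neurons, was at the array's floor of 2.07 in all 5. The other 25 also had a median of 2.07 and read at most 2.88, so Drd2 cannot show whether striatal tissue was present. Ttr, the leading choroid plexus transcript, read 6.34 to 8.25 in the Swiss-derived water arrays and up to 15.09 in the other 25.

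The 5 strains formed a close pair and a looser group of 3. For each gene the mean over the 30 water arrays was subtracted, and arrays were then compared by the Pearson correlation of these deviations across genes, which are not independent replicates. NOD/LtJ and NOR/LtJ correlated at 0.549. FVB/NJ correlated with SWR/J at 0.300 and with SJL/J at 0.215, and SWR/J with SJL/J at 0.269. Between the pair and the group of 3 the 6 correlations lay between -0.0375 and 0.0228. The closest array to each Swiss-derived water array was always another Swiss-derived one. The median correlation of a Swiss-derived array with the other 25 was -0.0645, against 0.00606 among the 5. Among the other 25 it was -0.0385, and their closest pair reached 0.530, near the value of NOD/LtJ with NOR/LtJ. In the fluoxetine arrays NOD/LtJ and NOR/LtJ correlated at 0.494, FVB/NJ with SWR/J at 0.306, SWR/J with SJL/J at 0.210 and FVB/NJ with SJL/J at 0.154. The separation was less clear there: FVB/NJ and NOR/LtJ correlated at 0.143, and the other 5 correlations across the groups lay between -0.0317 and 0.0472.

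**Figure D1:**
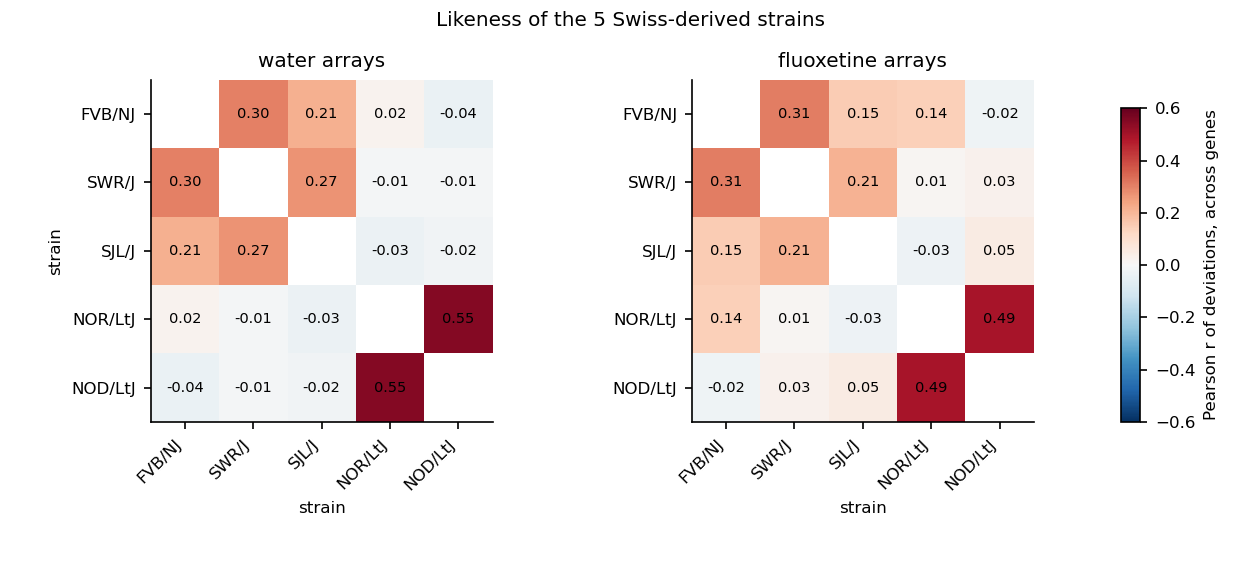
Pearson correlations, across 11886 genes, of the deviations from the mean of the 30 arrays of 1 treatment, for the 5 Swiss-derived strains; rows and columns are strains, the colour scale runs from -0.6 to 0.6, and the diagonal is blank. NOD/LtJ and NOR/LtJ form a block of their own at 0.55 in water and 0.49 in fluoxetine arrays, apart from FVB/NJ, SWR/J and SJL/J.

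Few genes separated the 5 water arrays from the other 25. In limma, 21 of 11886 genes passed an adjusted p of 0.05 (0.177% of those tested): 7 were higher (0.0589%) and 14 lower (0.118%) in Swiss-derived cortex. The median size of the difference was 0.69 on the log2 scale for the 21 genes and 0.06 over all tested genes. Without adjustment for the number of genes, 726 had a p under 0.05 (6.11%), of which 2.74% of tested genes were higher and 3.37% lower. The p-values measure spread between pools of different strains. With the related NOD/LtJ and NOR/LtJ averaged into 1 array, 15 genes were called, 12 of them among the 21. The 9 calls lost were 4930447C04Rik, 4930447M23Rik, Aqr, Chd1l, Dph6, Hspa1b, Ikzf2, Khsrp and Rsph9. In 1 gene, AW209491, all 5 Swiss-derived arrays lay outside the range of the other 25 (0.00841% of tested genes). Of the other 20, 6 had 4 Swiss-derived arrays outside that range, 9 had 3, 4 had 2, and Rsph9 had 0.

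AW209491 is a gene known by its sequence name alone. It read 9.56 in FVB/NJ, 9.73 in NOR/LtJ, 9.60 in SWR/J, 9.53 in SJL/J and 9.76 in NOD/LtJ, against 9.97 to 10.40 (median 10.14) in the other strains. All 5 lay below the lowest other strain, BUB/BnJ. The difference was -0.52 ± 0.06 (SE; log2, 5 against 25 arrays, limma adjusted p = 3.85e-05), or 0.696 of the other strains' level. In the fluoxetine arrays the 5 strains again lay outside the range of the 25, with a difference of -0.46 (limma adjusted p = 0.00185), which 0.0168% of tested genes did there. The margin was very narrow: NOD/LtJ read 9.756 and BUB/BnJ, the lowest other strain, 9.765.

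**Figure D2:**
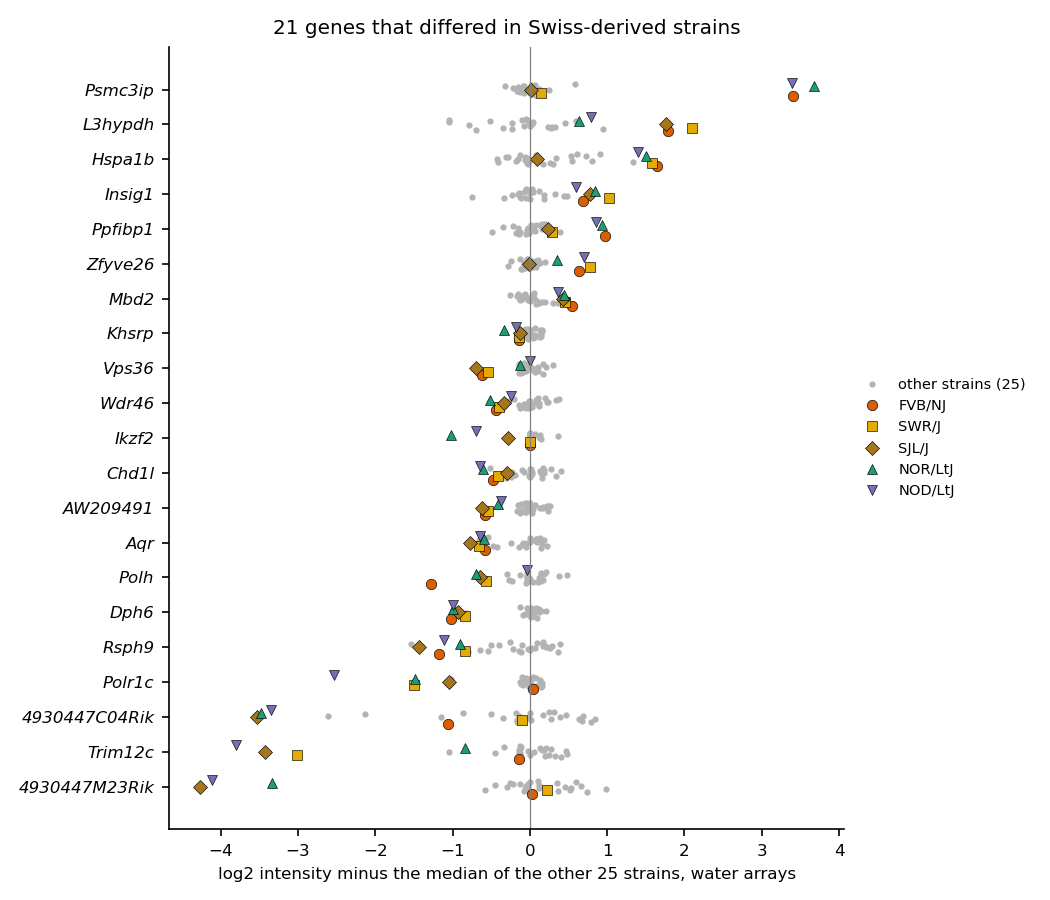
Water arrays of the 21 genes that passed the test, 1 row a gene; the horizontal axis is the log2 intensity minus the median of the other 25 strains, grey points are those strains and coloured symbols the 5 Swiss-derived strains. Several rows split the 5 strains: Psmc3ip is high in 3 of them, and 4930447M23Rik is low in another 3.

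Among the higher genes, Insig1 and Mbd2 were raised in all 5 strains with little spread. Insig1 encodes a membrane protein of the endoplasmic reticulum that, when sterols are plentiful, holds back the transcription factor SREBP and speeds the breakdown of HMG-CoA reductase. SREBP drives Insig1 itself, along with the enzymes of cholesterol synthesis. Insig1 read 10.49 in FVB/NJ, 10.64 in NOR/LtJ, 10.82 in SWR/J, 10.57 in SJL/J and 10.40 in NOD/LtJ, against 9.04 to 10.55 (median 9.80) in the others. C58/J was the only other strain that reached the Swiss-derived range. The difference was 0.77 ± 0.13 (SE; limma adjusted p = 0.00233), a level 1.70 times that of the other strains. In bulk tissue, more cells of a type and more RNA per cell cannot be told apart.

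The Insig1 promoter is shown because Insig1 was the called member of the sterol list. It is the C57BL/6J-based RefSeq reference of GRCm38.p6, 250 bases before to 50 after the start, at chr5:28071162-28071461, plus strand; the Swiss-derived strains' own sequence was not used here. Capitals mark an E-box, CACGTG, which 7.15% of 32851 promoters of this length hold, and a CCAAT box (CCAAT on either strand, in 37.4%).
Insig1: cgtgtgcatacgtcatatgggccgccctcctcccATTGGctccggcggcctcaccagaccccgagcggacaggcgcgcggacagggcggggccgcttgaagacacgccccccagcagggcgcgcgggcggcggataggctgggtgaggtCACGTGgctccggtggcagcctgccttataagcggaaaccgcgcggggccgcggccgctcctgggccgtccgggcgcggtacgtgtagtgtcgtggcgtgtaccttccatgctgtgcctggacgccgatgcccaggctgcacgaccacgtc
The sterol regulatory element core searched, TCACNCCA on either strand, occurred in 4.36% of promoters and these letters were not in this window.

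The rest of the sterol and lipid synthesis list did not move with Insig1 past the threshold. Of 29 tested members Insig1 alone was called. At an unadjusted p under 0.05, 5 members were higher and 0 lower, where 2.74% and 3.37% of all tested genes were. Apart from Insig1 these were Cyp51, lanosterol demethylase, at 0.26 on the log2 scale; Scd1, a fatty acid desaturase, at 0.24; Fads2, another desaturase, at 0.19; and Sqle, squalene epoxidase, at 0.12, with adjusted p from 0.685 to 0.809 in limma. The transcription factors Srebf1 and Srebf2 differed by -0.09 and -0.01, and Hmgcs1, an early enzyme of the pathway, by 0.04. The list's median difference was 0.04 in water and -0.04 in fluoxetine arrays, against -0.01 over all tested genes in water.

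**Figure D3:**
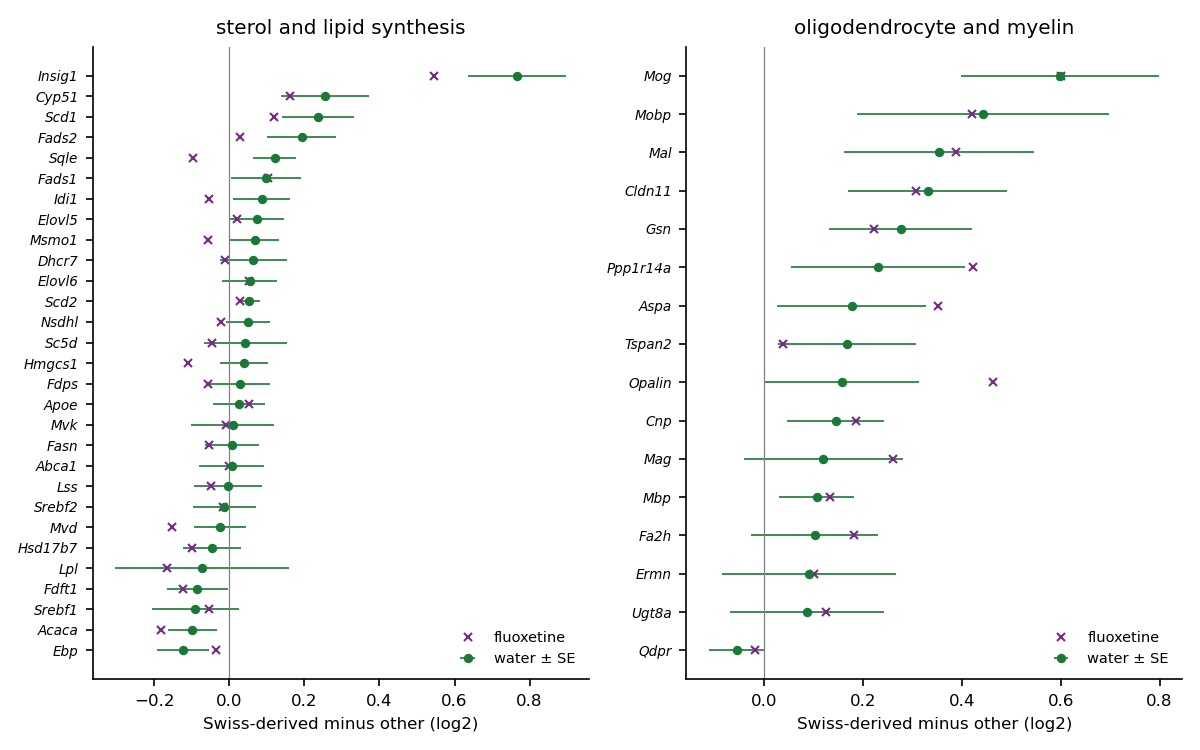
Differences between the 5 Swiss-derived and the 25 other strains on the log2 scale for the tested members of the sterol and lipid synthesis list (left) and of the oligodendrocyte and myelin list (right); green points are water arrays with their standard errors, crosses fluoxetine arrays. Insig1 stands at 0.77 in water, and 15 of 16 myelin genes lie above 0 without passing the test.

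Mbd2, which binds methylated DNA and recruits repressor complexes, read 9.80 in FVB/NJ, 9.70 in NOR/LtJ, 9.71 in SWR/J, 9.69 in SJL/J and 9.62 in NOD/LtJ. The other strains lay between 8.99 and 9.62 (median 9.25), and BALB/cJ alone reached the Swiss-derived values. The difference was 0.45 ± 0.07 (SE; limma adjusted p = 0.000858), and a second Mbd2 probe set differed by 0.46.

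Ppfibp1, Zfyve26 and L3hypdh were higher in most of the 5 strains. Ppfibp1 encodes a liprin, a scaffold protein of cell adhesions and synapses. It read 10.12 in FVB/NJ, 10.09 in NOR/LtJ and 10.01 in NOD/LtJ, but 9.43 in SWR/J and 9.38 in SJL/J, against 8.66 to 9.54 in the others. The first 3 lay above every other strain, whereas SWR/J and SJL/J lay below C3H/HeJ. Over the 5 arrays the difference was 0.67 ± 0.11 (SE; limma adjusted p = 0.000971).

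Zfyve26, the spastizin gene of lysosome renewal, showed another split. It read 8.92 in FVB/NJ, 8.62 in NOR/LtJ, 9.05 in SWR/J and 8.98 in NOD/LtJ, above all other strains, of which MA/MyJ was highest at 8.47. SJL/J read 8.26, in the middle of that range. Its difference was 0.50 ± 0.08 (SE; limma adjusted p = 0.000858). L3hypdh, which encodes a hydroxyproline dehydratase, read 5.96 in FVB/NJ, 6.28 in SWR/J and 5.94 in SJL/J, but 4.81 in NOR/LtJ and 4.97 in NOD/LtJ, against 3.13 to 5.13 (median 4.18) elsewhere. The pair thus lay below the other 3 and above the reference median, and AKR/J alone of the reference strains reached it. The difference was 1.50 ± 0.24 (SE; limma adjusted p = 0.00102), and 7 of 60 arrays shared 1 value of L3hypdh.

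Psmc3ip had the largest rise and was the clearest case of a strain-limited call. Its product partners the recombinases that pair chromosomes in meiosis. It read 8.82 in FVB/NJ, 9.10 in NOR/LtJ and 8.82 in NOD/LtJ, but 5.57 in SWR/J and 5.44 in SJL/J. The other strains read 5.10 to 6.01, so SWR/J and SJL/J lay inside their range while the first 3 were more than 2 log2 units above it. Averaged over the 5 arrays the difference was 2.14 ± 0.34 (SE; limma adjusted p = 0.00102), 4.40 times the other level. A second probe set differed by 2.72. The low readings included a value shared by 13 of 60 arrays, so differences among them have no order.

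Hspa1b, an inducible heat shock protein 70, was higher in 4 of the 5. It read 11.53 in FVB/NJ, 11.39 in NOR/LtJ, 11.46 in SWR/J and 11.28 in NOD/LtJ, and 9.98 in SJL/J. The other strains read 9.46 to 11.22 (median 9.89), so 4 Swiss-derived strains lay above all of them and SJL/J beside their median. The margin was narrow, with BUB/BnJ at 11.22 just below NOD/LtJ. In fluoxetine arrays BUB/BnJ read 11.64, inside the 11.47 to 11.85 of those 4 strains. DBA/2J, at 11.32, and SM/J, at 11.28, came next among the others there. The difference was 1.06 ± 0.23 (SE; limma adjusted p = 0.0363), and 2 further probe sets differed by 1.16 and 1.17. The call was lost without FVB/NJ, NOR/LtJ, SWR/J or NOD/LtJ (adjusted p 0.139 to 0.179), and without any 1 of 7 reference strains: C58/J, BTBRT T(+) tf/J, C57BR/cdJ, DBA/2J, MA/MyJ, CBA/J and LG/J (0.0509 to 0.0537). Without SJL/J it was 0.00242.

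Its neighbour Hspa1a, which encodes a nearly identical protein, did not follow. It read 6.52 in FVB/NJ, 6.33 in NOR/LtJ, 5.84 in SWR/J, 7.14 in SJL/J and 6.45 in NOD/LtJ, against 6.02 to 7.66 in the others, a difference of -0.54 that did not pass (limma adjusted p = 0.555). Such close copies share probe sequence, so the split of signal between them is uncertain. Both promoters are shown because the genes gave differences of opposite sign. They are RefSeq reference sequence of GRCm38.p6 on the minus strand, at chr17:34959189-34959488 for Hspa1b and chr17:34972107-34972406 for Hspa1a. Capitals mark a heat shock element core, GAANNTTC, present in 7.86% of 32851 promoters, and a CCAAT box; the companion arrangement TTCNNGAA, held by 8.52%, was not in either window.
Hspa1b: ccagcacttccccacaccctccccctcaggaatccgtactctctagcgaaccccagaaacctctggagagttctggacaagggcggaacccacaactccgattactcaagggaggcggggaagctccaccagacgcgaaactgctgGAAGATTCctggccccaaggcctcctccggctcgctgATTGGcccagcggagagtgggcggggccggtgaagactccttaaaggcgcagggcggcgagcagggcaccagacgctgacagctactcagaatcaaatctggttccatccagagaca
Hspa1a: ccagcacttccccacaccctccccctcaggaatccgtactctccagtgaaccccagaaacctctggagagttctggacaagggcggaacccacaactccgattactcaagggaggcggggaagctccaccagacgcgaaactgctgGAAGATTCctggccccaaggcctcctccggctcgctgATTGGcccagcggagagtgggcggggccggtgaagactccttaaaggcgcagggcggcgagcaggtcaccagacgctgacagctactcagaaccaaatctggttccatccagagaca
In this reference the 2 windows were identical at 296 of 300 bases, with both marked motifs at the same positions. Over the heat shock and unfolded protein response list, Hspa1b was the only call among 29 tested members, and the median difference was 0.02. Hsp90aa1, Hspa8 and Dnajb1, chaperones of the same heat response, differed by 0.01, 0.02 and -0.04.

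The lower genes fell into those low in all 5 strains and those low in some. Rsph9, Dph6, Aqr, Chd1l and Wdr46 belong to the first kind. Rsph9 encodes a radial spoke protein of motile cilia. It read 6.40 in FVB/NJ, 6.68 in NOR/LtJ, 6.73 in SWR/J, 6.15 in SJL/J and 6.47 in NOD/LtJ, against a median of 7.58 in the others. NZW/LacJ, at 6.04, was lower still and was the only other strain in or below the Swiss-derived range. The difference was -0.98 ± 0.20 (SE; limma adjusted p = 0.0194), lost without FVB/NJ, SJL/J or NOD/LtJ (adjusted p 0.0604 to 0.0996).

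Dph6, an enzyme of diphthamide synthesis on elongation factor 2, and Aqr, a helicase of the spliceosome, lie next but one to each other in the order of tested genes. Dph6 read 8.78 in FVB/NJ, 8.80 in NOR/LtJ, 8.97 in SWR/J, 8.87 in SJL/J and 8.81 in NOD/LtJ, against 8.81 to 10.01 (median 9.80). Aqr read 9.91, 9.90, 9.83, 9.72 and 9.85 in the same order of strains, against 9.84 to 10.72 (median 10.50). Other strains shared the low level. For Dph6, C3H/HeJ, AKR/J, CE/J and MRL/MpJ lay inside the Swiss-derived range and CBA/J, at 8.98, just above it. For Aqr, C3H/HeJ and MRL/MpJ lay inside it and SM/J, at 9.95, just above. The differences were -0.80 ± 0.17 for Dph6 (SE; limma adjusted p = 0.0363) and -0.57 ± 0.12 for Aqr (SE; limma adjusted p = 0.0269). Zfp770, the tested gene between them, differed by 0.05.

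Both calls were near the threshold. Dph6 was lost without any 1 of the 5 strains (adjusted p 0.0718 to 0.122) or any 1 of 9 reference strains (C57BLKS/J, C58/J, BTBRT T(+) tf/J, NZB/BlNJ, C57BR/cdJ, DBA/2J, MA/MyJ, LG/J, I/LnJ; 0.0501 to 0.0537). Aqr was lost without NOR/LtJ, SWR/J, SJL/J or NOD/LtJ (0.0685 to 0.101). A second, dim Aqr probe set at a mean of 4.32 in the Swiss-derived arrays differed by -0.02.

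Chd1l, a chromatin remodeller of DNA repair, read 7.14 in FVB/NJ, 7.01 in NOR/LtJ, 7.20 in SWR/J, 7.32 in SJL/J and 6.97 in NOD/LtJ, against a median of 7.61. A/J and SM/J were as low. The difference of -0.49 ± 0.10 (SE; limma adjusted p = 0.0194) was lost without NOR/LtJ (0.0966) or NOD/LtJ (0.106). Wdr46, a factor of small ribosomal subunit assembly, read 8.86, 8.78, 8.91, 8.96 and 9.05 in that order of strains, against a median of 9.30. BUB/BnJ and LP/J reached this range. The difference of -0.41 ± 0.08 (SE; limma adjusted p = 0.0148) was lost without NOR/LtJ (0.0878), and a second, dim probe set differed by -0.08.

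The second kind was led by 4930447M23Rik, a transcript known by its clone name. It read 4.96 in NOR/LtJ, 4.02 in SJL/J and 4.19 in NOD/LtJ, but 8.32 in FVB/NJ and 8.52 in SWR/J, inside the 7.71 to 9.28 of the others. No other strain was low. The difference over the 5 arrays was -2.43 ± 0.43 (SE; limma adjusted p = 0.00472), lost without NOD/LtJ (0.0690). The same 3 strains had the lowest 4930447C04Rik, a gene of the synaptonemal complex of meiotic chromosomes: NOR/LtJ read 6.20, SJL/J 6.14 and NOD/LtJ 6.32, below the 7.06 of LG/J, the lowest other strain. FVB/NJ (8.62) and SWR/J (9.57) lay within the others' range, whose median was 9.67. Its difference of -2.19 ± 0.47 (SE; limma adjusted p = 0.0336) was lost without NOR/LtJ, SJL/J or NOD/LtJ (0.188 to 0.215), and a second probe set differed by -1.39.

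Trim12c, of the tripartite motif family of innate immunity, was low in SWR/J (2.87), SJL/J (2.46) and NOD/LtJ (2.07, at the floor), but 5.75 in FVB/NJ and 5.05 in NOR/LtJ. The other strains read 4.83 to 6.37, so the first 3 lay below all of them and the other 2 inside. In fluoxetine arrays SWR/J and SJL/J read 2.07, but NOD/LtJ read 4.57, beside NOR/LtJ at 4.80. The floor reading of NOD/LtJ thus did not recur, although both lay below the lowest other strain there, at 5.44. The difference was -2.25 ± 0.33 (SE; limma adjusted p = 0.000696). The family has close copies, and signal could be split between them.

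Polr1c, a subunit shared by RNA polymerases I and III, was low in 4 strains: NOR/LtJ read 8.45, SWR/J 8.43, SJL/J 8.88 and NOD/LtJ 7.40. FVB/NJ, at 9.97, sat beside the others' median of 9.93. NZW/LacJ, at 8.91, was the lowest other strain. The difference was -1.27 ± 0.19 (SE; limma adjusted p = 0.000858) on the brighter of 2 probe sets, whereas the second differed by -0.06 between means of 9.27 and 9.33. The probe sets of Polr1c thus disagreed, and the call rests on 1 of them.

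Polh, the translesion DNA polymerase eta, is separated from Polr1c by 1 tested gene, Xpo5, which differed by 0.04, and from Rsph9 by 2. It read 4.88 in FVB/NJ, 5.45 in NOR/LtJ, 5.58 in SWR/J, 5.51 in SJL/J and 6.12 in NOD/LtJ, against 5.85 to 6.63 in the others. The first 4 lay below every other strain and NOD/LtJ did not. In fluoxetine arrays FVB/NJ read 6.12, the median of the others, so its low water value did not recur. The difference was -0.69 ± 0.11 (SE; limma adjusted p = 0.0014), and 12 of 60 arrays shared 1 value. Along the genome order of 11862 placed genes, 7 of the 21 calls had another call within 20 tested genes. They were Polh, Polr1c and Rsph9, then Aqr and Dph6, then 4930447C04Rik and L3hypdh. The last pair went in opposite directions with 5 tested genes between them. No background count was made for other sets of genes, so whether 7 is many was not tested.

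Ikzf2, Vps36 and Khsrp completed the lower calls. Ikzf2, the Helios transcription factor, read 6.88 in FVB/NJ and SWR/J, 6.59 in SJL/J, 5.85 in NOR/LtJ and 6.18 in NOD/LtJ. The value 6.88 was shared by 26 of 60 arrays and was also the lowest and the median value of the other 25 water arrays. The difference was -0.44 ± 0.09 (SE; limma adjusted p = 0.0233), lost without NOR/LtJ (0.170) or NOD/LtJ (0.191), and with the mean of all probe sets (-0.16, adjusted p = 0.389). The Ikzf2 call was also lost with both arrays of a strain as a random block and on the mean of both arrays of each strain. It was lost as well without the C57/C58-related strains and with NOD/LtJ and NOR/LtJ averaged. Vps36 and Khsrp were outside the rule for naming genes and are named because they complete the list.

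Vps36, a subunit of the ESCRT-II sorting complex, read 8.82 in FVB/NJ, 8.89 in SWR/J and 8.75 in SJL/J, but 9.31 in NOR/LtJ and 9.44 in NOD/LtJ, where the others read 9.30 to 9.73. The difference was -0.40 ± 0.08 (SE; limma adjusted p = 0.0148), lost without FVB/NJ, SWR/J or SJL/J (0.0776 to 0.109). A second probe set went the other way, by 0.65, so the direction of Vps36 depends on the probe set. Khsrp, a splicing and mRNA decay factor, read 8.27 in NOR/LtJ and 8.42 to 8.47 in the other 4, against 8.43 to 8.76. Its difference of -0.22 ± 0.05 (SE; limma adjusted p = 0.0336) was lost without NOR/LtJ (0.248), SWR/J (0.0603) or NOD/LtJ (0.0969), and 2 further probe sets differed by -0.25 and -0.75.

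The fluoxetine arrays, from separate pools of the same strains, gave a like picture. They called 20 genes (0.168%), 7 higher and 13 lower. Of the 21 water calls, 14 were also called there in the same direction, which is 66.7% of the water calls and 70.0% of the fluoxetine calls. All 21 had the same sign, and 20 had an unadjusted p under 0.05, a level that 5.29% of all tested genes reached in these arrays (2.37% higher, 2.92% lower). The exception was Ikzf2, which differed by -0.05 in fluoxetine arrays. Insig1 differed by 0.55 (limma adjusted p = 0.154), Hspa1b by 0.86 (0.577), Rsph9 by -0.91 (0.0785), Polh by -0.68 (0.123), Chd1l by -0.49 (0.121) and Khsrp by -0.20 (0.372), none of which passed. The genotypes are the same in both sets, so the fluoxetine arrays repeat the pools and the arrays, not the strains. Without SWR/J the fluoxetine arrays called 13 genes in place of 20.

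**Figure D4:**
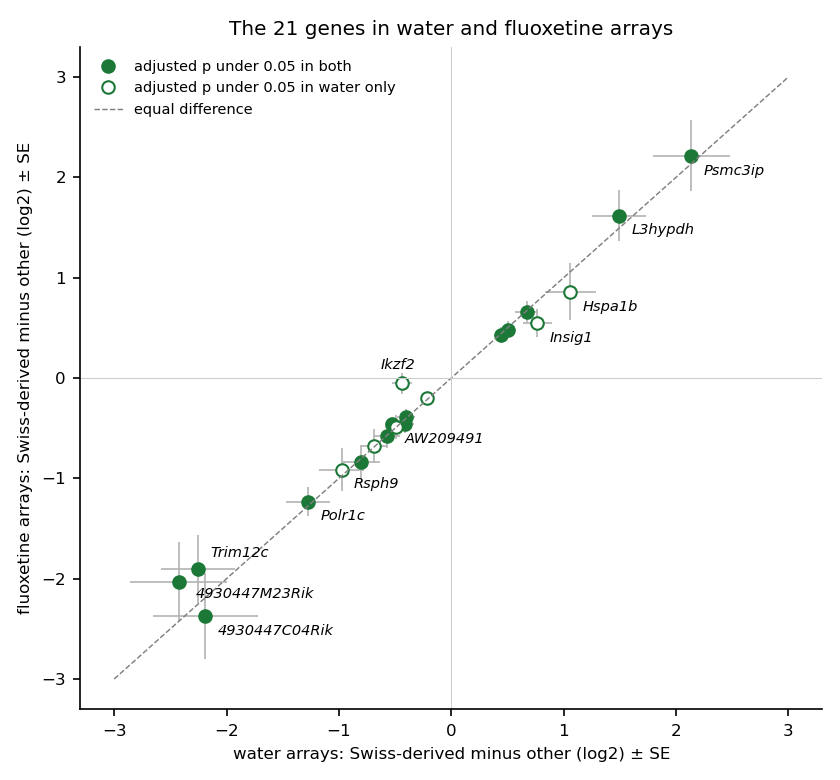
Difference between Swiss-derived and other strains for the 21 genes in water arrays (horizontal axis) and in fluoxetine arrays (vertical axis), both on the log2 scale with standard errors; filled points passed in both, open points in water alone, and the dashed line marks equal differences. All 21 lie on the same side of 0 in both sets, and Ikzf2 lies farthest from the line relative to its size, at -0.44 and -0.05.

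No gene passed the test of whether its Swiss-derived difference changed with treatment. The test compared the within-strain change from water to fluoxetine between the 5 and the 25 strains. It called 0 genes in limma (smallest adjusted p = 0.999), with 371 at an unadjusted p under 0.05 (3.12%). Ikzf2 (unadjusted p = 0.000797) and Insig1 (0.0197) were among those 371. Insig1 in fluoxetine arrays read 10.26 in FVB/NJ, 10.39 in NOR/LtJ, 10.54 in SWR/J, 10.30 in SJL/J and 9.90 in NOD/LtJ, and 8 of the 25 other strains reached that range.

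The fluoxetine arrays also called 6 genes that the water arrays did not, named here after their values were seen. All 6 had the same sign in water. Fgf1, a fibroblast growth factor of neurons, read 6.25 in FVB/NJ and 5.69 in SWR/J on water but 9.30 in the other 3, and 8.95 to 10.03 in the 25 others. Only FVB/NJ and SWR/J were low, and the water difference of -1.54 had an adjusted p of 0.062 in limma. Msrb2, a mitochondrial methionine sulfoxide reductase, read 8.50 in NOR/LtJ, 8.43 in SJL/J and 8.35 in NOD/LtJ on water, below the 8.88 to 9.50 of the others, while FVB/NJ (9.28) and SWR/J (9.15) lay inside. Bbs2, a ciliary trafficking subunit, differed by -0.44 in water (limma adjusted p = 0.0817), E130311K13Rik by 0.61 (0.0695) and Yae1d1 by -0.81 (0.334). Cd74, the invariant chain of MHC class II, differed by 0.32 in water (0.962) and 1.05 in fluoxetine arrays (limma adjusted p = 0.0314).

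Within the Swiss-derived strains, NOD/LtJ and NOR/LtJ differed from FVB/NJ, SJL/J and SWR/J in 23 genes (0.194% of 11886; limma adjusted p under 0.05, spread taken from all 30 water arrays), 9 higher and 14 lower. Of these, 22 did not overlap between the 2 and the 3 strains, as 35.2% of all tested genes did not, the exception being Psmc3ip. In 18 both arrays of the pair lay beyond all 25 other strains, against 1.32% of tested genes. Both counts describe genes chosen for this difference. All 23 had the same sign in the fluoxetine arrays of the 5 strains. The 3 genes also called between Swiss-derived and other strains were Psmc3ip, Ikzf2 and Vps36. In 18 of the 23 the call was lost when at least 1 of the 5 strains was left out. Tmem14c, Suclg2, Ikzf2 and Retsat passed in each of these fits. E330020D12Rik, the fifth, reached log2 4 on 7 of 60 arrays, 4 of them NOD/LtJ and NOR/LtJ, so it entered the test through the pair and its call is not independent of the filter.

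Tmem14c, a mitochondrial membrane protein needed for heme synthesis, had the largest difference. NOR/LtJ read 3.51 and NOD/LtJ 3.55, while FVB/NJ read 9.55, SWR/J 9.40 and SJL/J 9.44 and the 25 others 9.27 to 9.69. Both arrays of the pair were thus far below every other strain, by -5.94 ± 0.11 (SE; limma adjusted p = 5.00e-27) against the other 3 Swiss-derived strains. The gap recurred in fluoxetine arrays, where NOR/LtJ read 3.15 and NOD/LtJ 4.03. A single probe set measures Tmem14c here. Amy1, an amylase gene with close copies, read 5.00 in NOR/LtJ and 4.34 in NOD/LtJ against 9.47 to 10.23 in the other 3, a difference of -5.23 ± 0.87 (SE; limma adjusted p = 0.00304). CE/J, at 4.78, was as low, and the call was lost without NOD/LtJ (0.0724).

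Retsat, retinol saturase, was high in the pair: 9.64 in NOR/LtJ and 9.57 in NOD/LtJ, against 6.55 to 6.61 in the other 3. C58/J, at 9.39, came closest among the 25 others, whose median was 6.61. In fluoxetine arrays C58/J read 9.99, between NOD/LtJ (9.74) and NOR/LtJ (10.05), so the pair was not alone in the high level. The difference was 3.01 ± 0.49 (SE; limma adjusted p = 0.0027), and a value was shared by 12 of 60 arrays. A second Retsat probe set spanned 5.96 to 6.72 over the 5 strains and did not repeat the gap, so the call rests on 1 probe set. Spink10, a protease inhibitor gene, read 7.25 and 7.20 in the pair and 2.61 to 3.42 in the 3, but the others spread from 2.39 to 6.89. Its difference was 4.22 ± 0.87 (SE; limma adjusted p = 0.0268), lost without any 1 of the 5 strains. E330020D12Rik read 5.16 and 5.51 against 2.15 in each of the 3, a value near the floor that 27 of 60 arrays shared. The pair was not alone, since DBA/2J read 4.53 and LP/J 3.87 in water. In fluoxetine arrays DBA/2J, at 5.15, lay above NOD/LtJ (4.94) and NOR/LtJ (4.49), and LP/J read 4.22.

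**Figure D5:**
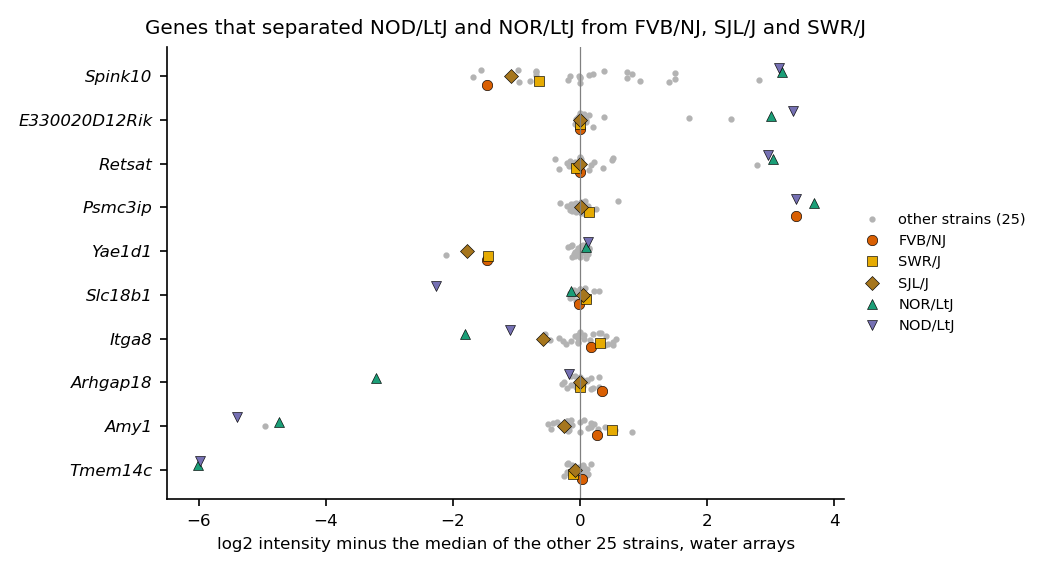
Water arrays of the 10 genes with the largest differences between NOD/LtJ and NOR/LtJ and the other 3 Swiss-derived strains, 5 in each direction; the horizontal axis is the log2 intensity minus the median of the other 25 strains. Both triangles lie near -6 for Tmem14c, whereas Arhgap18 is low in NOR/LtJ alone and Slc18b1 in NOD/LtJ alone.

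Of the remaining large differences, 2 came from 1 strain of the pair. Arhgap18 read 3.15 in NOR/LtJ and 6.18 in NOD/LtJ, and without NOR/LtJ its adjusted p was 0.966. Slc18b1, a vesicular polyamine transporter, read 7.32 in NOD/LtJ and 9.44 in NOR/LtJ, and without NOD/LtJ its adjusted p was 1.0. Itga8, an integrin subunit, read 6.08 in NOR/LtJ and 6.79 in NOD/LtJ on water, below the 7.31 of SJL/J and 8.06 and 8.21 of FVB/NJ and SWR/J. In fluoxetine arrays the pair read 7.60 and 7.71, so that separation was not present there. Yae1d1 ran the other way: the pair, at 9.63 and 9.66, sat beside the others' median of 9.54. FVB/NJ (8.08), SWR/J (8.09) and SJL/J (7.77) were low, with BUB/BnJ at 7.44 the lowest of all. The call was lost without any 1 of the 5 strains, and leaving out NOD/LtJ or NOR/LtJ leaves 1 array in the pair. The Swiss-derived minus other difference of Yae1d1 in water was -0.81, but -0.21 and 0.20 on 2 further probe sets, the last of them dim.

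Several brain genes were among the rest of the 23, named here after their values were seen. Aldh5a1, which completes the breakdown of GABA, read 10.15 in NOR/LtJ and 10.16 in NOD/LtJ against 10.73 to 10.87 in the other 3 and 10.27 to 10.93 in the 25 (limma adjusted p = 0.0268, lost without any 1 of the 5 strains). Suclg2, a subunit of succinyl-CoA ligase in the citric acid cycle, read 8.47 and 8.46 against 9.26 to 9.46 (limma adjusted p = 0.000841). Sox9, a transcription factor of astrocytes, read 8.37 and 8.58 against 9.10 to 9.38 (limma adjusted p = 0.0104, lost without NOR/LtJ at 0.223 or SWR/J at 0.0594). The mean level of the astrocyte list was 11.48 in NOR/LtJ and 11.51 in NOD/LtJ, and 11.76 in FVB/NJ, 11.44 in SWR/J and 11.52 in SJL/J. In the separate comparison of Swiss-derived with other strains, the list's median difference was 0.01.

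Across 45 gene lists, the heat shock list and the sterol list held 1 water call each and no other list held any. Over all tested genes 0.177% were called, so counts of 0 or 1 in lists of this size are near the background. In fluoxetine arrays the MHC class II list held 1 call, Cd74, with a median difference of 0.41 over 7 tested members against 0.08 in water. The exact permutation test was run for 14 lists of cell type and region markers, on the mean log2 level of each list, and none passed (smallest adjusted p = 0.457 over the 14, two-sided). Oligodendrocyte and myelin genes came nearest: 15 of 16 tested members were above the other strains, with a median difference of 0.16 in water and 0.24 in fluoxetine arrays, and an exact permutation p of 0.0723 for the list's level. Its range was 10.30 to 10.57 in the 5 strains and 9.79 to 10.71 in the 25. Mog, a myelin surface protein, read 8.93 to 9.30 against 7.69 to 9.38, a difference of 0.60 that did not pass in limma (adjusted p = 0.43). Microglia, interneuron and endothelial markers had median differences of 0.10, -0.06 and -0.09.

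Median differences were 0.04 for 18 ionotropic glutamate receptor genes, 0.00076 for 9 GABA-A receptor genes and 0.03 for 43 potassium channel genes. Scn2a, a sodium channel of excitatory neurons, read 14.40 to 14.62 against 14.18 to 14.48, a difference of 0.19 that did not pass (limma adjusted p = 0.0548). Among 11 tested serotonin genes, Htr1f, a serotonin receptor, read 5.85 to 6.75 in the 5 strains but spread from 2.13 to 7.51 in the others, and its difference of 1.68 had an adjusted p of 0.79 in limma. Crym, a thyroid hormone-binding protein of deep-layer neurons, read 3.12 in NOD/LtJ and 10.60 to 11.15 in the other 4, so that its mean difference of -1.68 came from 1 strain. In fluoxetine arrays its lowest Swiss-derived value was 4.63. Cd59a, an inhibitor of complement attack, read 8.05 to 9.83 against 5.79 to 8.71, a difference of 0.999 that did not pass (limma adjusted p = 0.363).

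Some genes known for strain alleles split the 5 strains. Of 10 tested 0 were called, where 0.177% of all genes were. Galc, which breaks down myelin galactolipids, read 2.73 in FVB/NJ and 2.74 in SWR/J, 7.37 in SJL/J, and 9.42 in NOR/LtJ and 9.41 in NOD/LtJ. The others ran from 2.33 to 9.53 with a median of 9.29, and fluoxetine arrays repeated the 3 levels, at 2.33, 2.78, 6.93, 9.37 and 9.36. A second Galc probe set spanned 4.21 to 5.70 over the 5 water arrays and its group difference had the other sign, 0.28, so the levels rest on 1 probe set. Glo1, a detoxifying enzyme with a copy number variant among strains, read 11.96 to 12.16 in the 5 water arrays, inside the 11.20 to 13.76 of the others, and 11.64 to 12.38 in fluoxetine arrays. Its 3 further probe sets differed by -0.52, -0.81 and -1.97, the last spanning 5.68 to 8.51 over the 5 strains. Nnt, a mitochondrial transhydrogenase with a textbook allele in C57BL/6J, read 10.00 to 10.37, and Gabra2, a GABA-A receptor subunit, 10.86 to 11.21. Both lay inside the others' range. C57BL/6J itself read 10.13 for Nnt in water, so its allele was not apparent at this probe set. The retinal gene Pde6b, the pigment gene Tyr, the complement gene Hc and the immune genes Il2, Ctla4, Tlr4 and Cd244a, which carry textbook alleles in some of these strains, read at most 2.17 in the 5 water arrays, at or near the floor, and were not tested.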

How the data were processed

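Cortex RNA pooled from 3 mice per strain and treatment was hybridised to 1 Affymetrix array each, 60 in all. The deposited intensity values were made with GCRMA, per the submitters' processing notes (no version is stated there), and were used on the log2 scale with no pseudocount. Of 45101 probe sets, 34945 carried 1 gene symbol, 932 several and 9160 none. A gene took its probe set with the highest mean over 60 arrays, and genes at log2 4 or more in at least 6 arrays were tested. limma 3.58.1 (R 4.3.3) compared 5 with 25 strains within each treatment, and Python 3.11.15 did the rest. Tests were two-sided, with Benjamini-Hochberg adjustment over all tested genes at 0.05. Water and fluoxetine arrays share strains, so pairs by strain were also fitted as a random block (consensus correlation 0.600). The 14 marker lists were tested by exact permutation of the 5 among 30 strains. The strains and gene lists were chosen with earlier results of these data known. The rule named the 12 largest calls and the 5 of smallest p in each direction, up to 6 calls per list, all listed alleles, and the 5 largest NOD/LtJ and NOR/LtJ differences each way; list members that did not pass were named after their values were seen. Scan dates were not used here, and the strains' sequences under the probes were not analysed here. The analysis was tested on simulated data. GCRMA gives repeated values at low signal: 2975 of 11886 tested genes (25.0%) shared a value on 6 or more arrays. Alternatives covered the filter, scale, probe set rule, normalization, strains left out and the block.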

Additional observations from a re-analysis of the deposited data

Results flagged for a closer look

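In 9 of 80 groups of 5 arrays tested, all of named genes, 1 strain lay far from the other 4 by Dixon's criterion. Many of these genes were chosen from the same arrays for large strain differences, so no chance rate can be set beside this count. Hspa1b was far lower in SJL/J, at 9.98 on the log2 scale in water and 9.70 in fluoxetine arrays. Arhgap18 was far lower in NOR/LtJ, at 3.15 and 3.81. Slc18b1 was far lower in NOD/LtJ, at 7.32 and 7.63. These 3 genes stood apart in the same strain under both treatments. Dysf, a membrane repair protein, stood apart in NOR/LtJ in water (4.19) and in FVB/NJ in fluoxetine arrays (3.10). The water gap was small: FVB/NJ, SWR/J and SJL/J shared 1 repeated value, 4.26, and NOD/LtJ read 4.27. Such ties inflate the criterion. Khsrp stood apart in NOR/LtJ in water (8.27).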

How the results depend on the processing

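Of the 21 water calls, 10 were kept in every setting that tested them: AW209491, Insig1, L3hypdh, Mbd2, Polh, Polr1c, Ppfibp1, Psmc3ip, Trim12c and Zfyve26. Of these, L3hypdh and Polh were tested in 14 settings and Psmc3ip and Trim12c in 15, against 16 for the rest. The fit without genes of repeated values did not include L3hypdh, Polh, Psmc3ip or Trim12c. Of 327 combinations of a called gene and a setting, 267 kept direction and call, 59 kept direction and lost the call, and 1 reversed: Vps36, at 0.053 with the mean of its probe sets. With both arrays of a strain as a replicate block, 66 genes were called, 20 of them among the 21; on the mean of both arrays of each strain, 26 were called, 19 among the 21. Leaving out 1 Swiss-derived strain gave 14 to 29 water calls (14 without NOD/LtJ) and 13 to 20 fluoxetine calls; leaving out 1 other strain gave 19 to 28. Without genes of repeated values, an alternative chosen after seeing the data, 14 water calls remained, all among the 21. Between NOD/LtJ with NOR/LtJ and the other 3, 54 genes were called with no filter on low values and 10 without genes of repeated values, and 17 to 30 with 1 strain left out. Non-overlapping genes numbered 3 with the mean of probe sets and 3 without the C57 and C58 relatives. The causes were not tested. Uncalled Swiss-derived differences that changed sign with 1 strain left out ranged from -0.85 to 0.032 for Arhgap18, -1.21 to 0.46 for Galc, -0.054 to 0.030 for Ahr, -0.0089 to 0.0089 for Dysf, -0.046 to 0.062 for Btbd9, -0.084 to 0.13 for Alad and -0.13 to 1.03 for Spink10. With NOD/LtJ and NOR/LtJ averaged, Ahr was 0.00015, Btbd9 -0.031 and Spink10 -0.12. Without the C57 and C58 relatives, Dysf was 0.0085, Btbd9 -0.017 and Alad -0.079, and Dysf was 0.0032 after quantile normalization. Marker levels with 1 strain left out ranged from -0.012 to 0.068 for astrocytes, -0.070 to 0.032 for pericytes, -0.15 to 0.054 for meninges, -0.056 to 0.021 for upper-layer neurons, -0.048 to 0.013 for hippocampus and -0.0037 to 0.023 for olfactory bulb. Precision is limited by 1 pooled array per strain and by 5 strains of which a pair is closely related. Low genes near the floor of 2.07 have no order.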
